A study of Mus musculus with 15 samples.

Results

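The genes described here encode the enzymes that feed and run the tricarboxylic acid (TCA) cycle and those that oxidise branched-chain amino acids and ketone bodies in the left ventricle. The 43 genes were given as a list of gene symbols, with no threshold on measured values, and each was found once by its symbol among the 47069 genes of the deposited count table. They comprise 5 genes of the pyruvate dehydrogenase complex, 12 of the TCA cycle, 4 of the malate-aspartate shuttle and pyruvate carboxylation, 2 branched-chain aminotransferases, 5 of the branched-chain ketoacid dehydrogenase (BCKDH) step, 4 of leucine and 5 of valine and isoleucine breakdown, 3 of propionyl-CoA metabolism and 3 of ketone oxidation.

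Heart muscle draws its ATP mainly from oxidation in mitochondria. Acetyl-CoA, made from pyruvate, fatty acids, ketone bodies or amino acids, enters the TCA cycle, which passes electrons to the respiratory chain. Leucine, isoleucine and valine lose their amino group first, and BCKDH then commits their carbon skeletons to oxidation, under the opposite control of a kinase that switches it off and a phosphatase that switches it on.

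Messenger RNA was sequenced from the left ventricle of C57BL/6 mice in 3 groups of 5 libraries. In the rHCI and PBS groups the heart was infarcted, and 7 days later rHCI, a hydrogel, or phosphate-buffered saline (PBS) was injected into the muscle. The tissue was harvested 2 days after that injection, so both groups carried the infarct and the injection. The Sham group was operated without infarction, received no treatment and was 10 weeks old, matched for age. The labels give no injection for sham hearts, so that against them the effects of infarct and of injection cannot be told apart. The tissue was ground as a whole, and no label says how much of the infarct a sample held. The series describes the libraries as biological replicates. Libraries are called by group and replicate number, and values are listed in the order rHCI 1, 3, 7, 11 and 13, PBS 2, 6, 9, 12 and 14, and Sham 16, 17, 18, 19 and 20.

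Totals ranged from 32978702 to 103356830 counts per library. Markers of heart muscle cells were abundant in all 15 libraries, as the labelled tissue requires, at a summed 44420 to 93692 CPM over 10 genes, where CPM stands for counts scaled to a common library size with TMM factors. 12 libraries share a run number in the labels, PBS 6 has another, and rHCI 1 and Sham 19 have a further one. In PBS 6 a list of lung and liver markers summed to 60.1 CPM and skeletal muscle markers to 29.0 CPM. The other libraries had at most 0.812 and 2.78 CPM. Of the first list, the lung genes Sftpc, Sftpb and Ager reached 44.6, 11.9 and 3.35 CPM among PBS libraries. The lung gene Scgb1a1 and the liver genes Alb, Apoa1 and Ttr reached at most 0.211 CPM there. Atrial markers, 3 genes, summed to 368 CPM in rHCI 1 and to 57.9 to 151 CPM in the other infarcted libraries. In sham libraries they summed to 4.54 to 33.7 CPM. In the 12 libraries of the shared run alone, and with each library left out in turn, the counts of the 43 genes called higher or lower below were the same.

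Nearly the whole set was lower in infarcted hearts with TMM scaling. Relative to the counts of cardiomyocyte markers, 4 genes were lower and 9 higher in rHCI hearts, and 4 lower and 15 higher in PBS hearts. That scale called 1.77% of all genes lower and 77.6% higher in rHCI hearts, and 1.76% lower and 84.0% higher in PBS hearts. With TMM scaling, 41 of the 43 genes were lower and 1 was higher than in sham hearts, in rHCI and in PBS hearts alike. These calls are by edgeR's quasi-likelihood test at adjusted p under 0.05. Of all genes tested, 29.7% were lower and 34.1% higher in rHCI than in sham hearts, and 34.9% were lower and 36.5% higher in PBS than in sham hearts. All 43 genes passed the filter on low counts in each comparison. Their median log2 fold change was −0.54 in rHCI hearts and −0.68 in PBS hearts, against 0.00 and −0.01 over all genes tested. With library totals in place of TMM the median was −0.32 in rHCI and −0.41 in PBS hearts, against 0.22 and 0.27 over all genes. Among the genes that were lower, adjusted p ran from 5.09e-05 to 0.00186 in rHCI hearts and from 1.26e-07 to 2.27e-05 in PBS hearts by edgeR. The 5 infarcted libraries of each group did not overlap the 5 sham libraries for 42 of the 43 genes. Such separation was seen for 22.2% of all genes in the lower and 27.2% in the higher direction in rHCI hearts, and for 27.4% and 31.6% in PBS hearts. The exceptions to the common fall were Bcat1, which was higher, and Bdh1, which was not called. Each log2 fold change is given ± its standard error (SE). In bulk tissue, fewer cells of a type and less RNA per cell cannot be told apart.

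**Figure D1:**
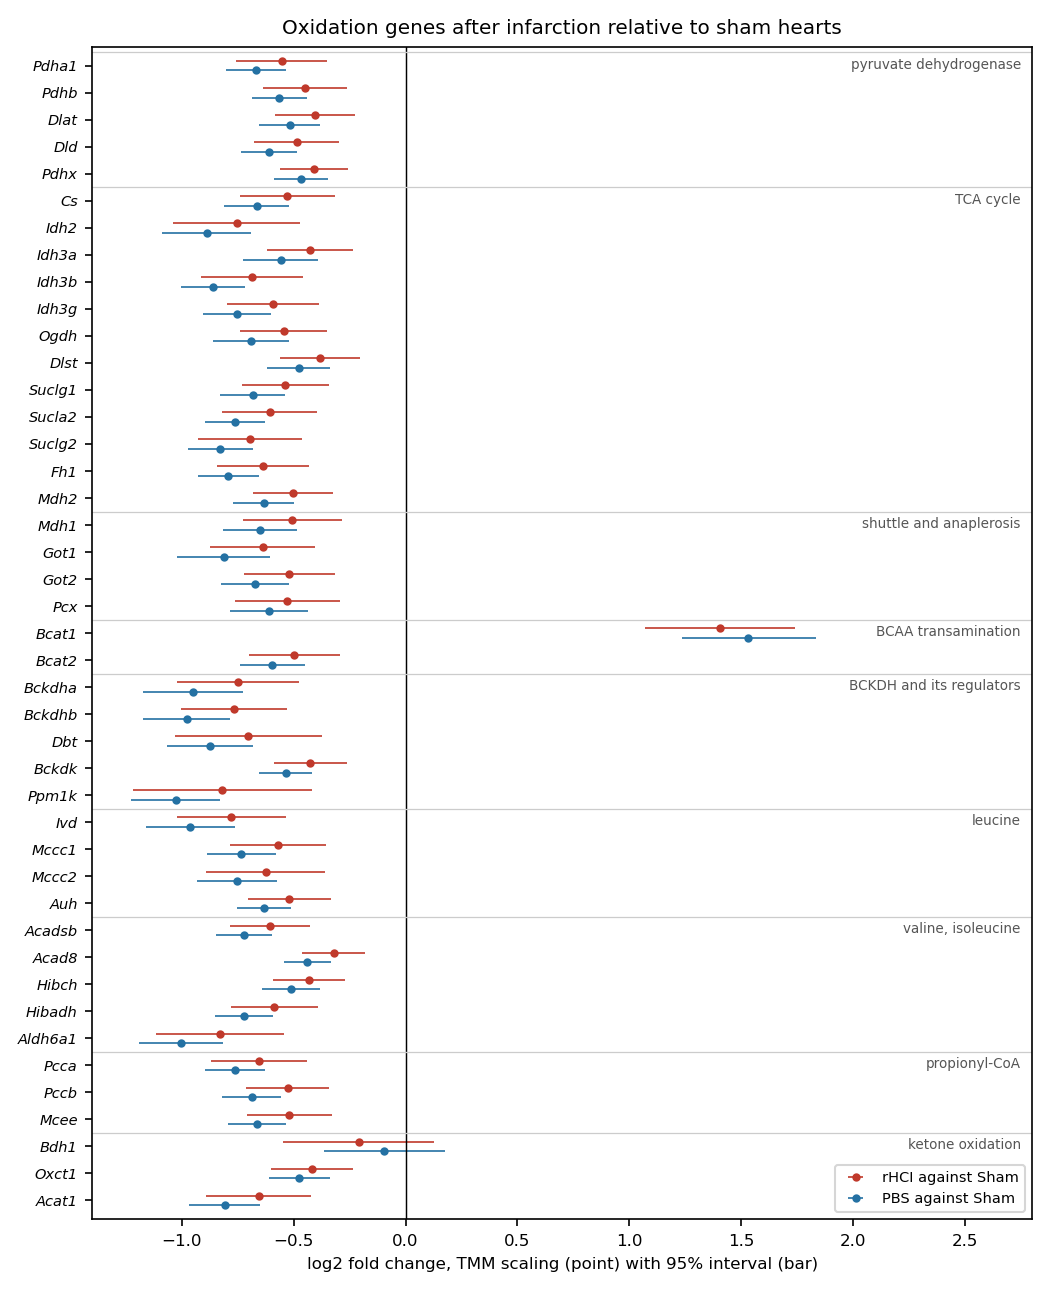
Log2 fold changes of the 43 genes against sham hearts with TMM scaling (horizontal axis, no unit), grouped by pathway step, with rHCI in red above PBS in blue and bars for 95% intervals. All but Bcat1 lie at negative values, and the intervals of Bdh1 alone include 0.

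The pyruvate dehydrogenase complex links glycolysis to the cycle. All 5 of its genes were lower in both infarcted groups, with a median log2 fold change of −0.45 in rHCI and −0.56 in PBS hearts. Pdha1, the catalytic E1 alpha subunit, had 1141, 923, 1077, 1252 and 1349 CPM in rHCI hearts, 1056, 1103, 1037, 962 and 1183 CPM in PBS hearts and 1670.3, 1623, 1742, 1693 and 1746 CPM in sham hearts. Every infarcted library lay below every sham library, with rHCI 3 and PBS 12 the lowest of their groups. Its log2 fold change was −0.55 ± 0.09 in rHCI and −0.67 ± 0.06 in PBS hearts. Pdhx, which anchors the E3 subunit, had −0.41 in rHCI and −0.47 in PBS hearts. In rHCI hearts the log2 fold changes were −0.45 for Pdhb (E1 beta), −0.40 for Dlat (E2) and −0.49 for Dld, the E3 subunit that BCKDH and 2-oxoglutarate dehydrogenase share. In PBS hearts they were −0.56 for Pdhb, −0.52 for Dlat and −0.61 for Dld.

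All 12 genes of the cycle itself were lower, with a median of −0.57 in rHCI and −0.72 in PBS hearts. Per kilobase of exon, Idh2 and Mdh1 were the most abundant of the 43 genes in sham hearts, at 897 ± 79.6 and 849 ± 34.9 CPM per kb (SD, n = 5), and these levels differ by less than their spread. Idh2, the mitochondrial NADP-dependent isocitrate dehydrogenase, fell most of the cycle genes. It had 1270.3, 993, 1303, 1564 and 1707 CPM in rHCI hearts, 1168, 1382, 1266, 1037 and 1425 CPM in PBS hearts and 2236, 2075, 2395, 2271 and 2628 CPM in sham hearts. The highest infarcted library, rHCI 13, stayed below the lowest sham library, Sham 17. The log2 fold change of Idh2 was −0.76 ± 0.13 in rHCI and −0.89 ± 0.09 in PBS hearts. Idh3a, the catalytic subunit of the NAD-dependent isocitrate dehydrogenase that runs the cycle forward, had 543, 432, 497, 543 and 622 CPM in rHCI hearts, 504, 505, 448, 413 and 556 CPM in PBS hearts and 761, 715, 661, 734 and 694 CPM in sham hearts. The groups were closer than for Idh2, but again did not overlap, and the log2 fold change was −0.43 ± 0.09 in rHCI and −0.56 ± 0.08 in PBS hearts.

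Within the same NAD-dependent enzyme, the other 2 subunits had larger fitted falls than Idh3a. The log2 fold changes were −0.69 ± 0.11 for Idh3b and −0.59 ± 0.09 for Idh3g in rHCI hearts, and −0.86 ± 0.07 for Idh3b and −0.75 ± 0.07 for Idh3g in PBS hearts. That difference between subunits was not tested. Cs, citrate synthase, the entry enzyme often used as a measure of mitochondrial content, had 1193, 969, 1121, 1331 and 1453 CPM in rHCI hearts, 1107, 1154, 1057, 983 and 1258 CPM in PBS hearts and 1803, 1719, 1731, 1769.9 and 1772 CPM in sham hearts. All 10 infarcted libraries were below all sham libraries, and sham hearts varied little, with a coefficient of variation of 1.93%. Its log2 fold change was −0.53 ± 0.10 in rHCI and −0.67 ± 0.07 in PBS hearts. Ogdh, the E1 subunit of 2-oxoglutarate dehydrogenase, had −0.54 in rHCI and −0.69 in PBS hearts. Dlst, the E2 subunit of the same complex, changed least among the cycle genes, with −0.38 ± 0.08 in rHCI and −0.48 ± 0.06 in PBS hearts.

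In rHCI hearts the remaining cycle genes had log2 fold changes of −0.54 for Suclg1, −0.61 for Sucla2 and −0.70 for Suclg2, the subunits of succinyl-CoA ligase, −0.64 for Fh1, fumarase, and −0.50 for Mdh2, mitochondrial malate dehydrogenase. In PBS hearts they were −0.68 for Suclg1, −0.76 for Sucla2, −0.83 for Suclg2, −0.79 for Fh1 and −0.63 for Mdh2. The malate-aspartate shuttle carries reducing equivalents from the cytosol into mitochondria. Its cytosolic enzymes had log2 fold changes of −0.51 for Mdh1 and −0.64 for Got1 in rHCI hearts, and −0.65 for Mdh1 and −0.81 for Got1 in PBS hearts. Got2, the mitochondrial aspartate aminotransferase, had −0.52 in rHCI and −0.67 in PBS hearts. Pcx, pyruvate carboxylase, which refills the cycle with oxaloacetate, is a low-level gene in heart. It had 32.9, 24.9, 29.1, 34.0 and 37.9 CPM in rHCI hearts, 31.4, 31.4, 27.9, 27.1 and 33.5 CPM in PBS hearts and 43.2, 44.9, 51.5, 39.6 and 51.3 CPM in sham hearts. The groups did not overlap, with rHCI 13 just below Sham 19, and the log2 fold change was −0.53 ± 0.11 in rHCI and −0.61 ± 0.08 in PBS hearts.

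The first step of branched-chain amino acid breakdown split. Bcat1, the cytosolic aminotransferase (ENSMUSG00000030268, GRCm38 chr6:144993835-145076184), had 6.05, 7.29, 6.03, 4.70 and 4.41 CPM in rHCI hearts, 6.75, 6.06, 6.23, 7.59 and 4.73 CPM in PBS hearts and 2.42, 1.72, 2.55, 2.01 and 2.08 CPM in sham hearts. Every infarcted library was above every sham library, and the levels were low throughout. Bcat1 was higher by 1.40 ± 0.15 on the log2 scale in rHCI hearts (edgeR adjusted p = 9.10e-06) and by 1.53 ± 0.14 in PBS hearts (edgeR adjusted p = 5.07e-07). Bcat2, the mitochondrial aminotransferase and the main form in heart muscle (ENSMUSG00000030826, GRCm38 chr7:45570153-45589711), had 88.3, 70.4, 82.5, 92.5 and 109.5 CPM in rHCI hearts, 84.9, 93.6, 78.0, 71.5 and 89.5 CPM in PBS hearts and 129.6, 118, 124, 128 and 129 CPM in sham hearts. It moved the other way without overlap, with a log2 fold change of −0.50 ± 0.09 in rHCI and −0.60 ± 0.07 in PBS hearts. Per kilobase of exon, Bcat2 stood at 22.7 ± 3.67 CPM per kb in rHCI, 21.4 ± 2.27 in PBS and 32.3 ± 1.31 in sham hearts (SD, n = 5). Bcat1 stood at 0.611 ± 0.125 CPM per kb in rHCI, 0.673 ± 0.112 in PBS and 0.231 ± 0.0359 in sham hearts, so it was the rarer form in each group.

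The BCKDH step had the largest falls of the 43 genes as a group, with a median log2 fold change of −0.75 in rHCI and −0.95 in PBS hearts. Bckdhb, the E1 beta subunit of the complex (ENSMUSG00000032263, GRCm38 chr9:83925145-84124240), had 37.8, 29.9, 33.3, 43.4 and 48.5 CPM in rHCI hearts, 34.3, 37.1, 31.1, 26.1 and 39.3 CPM in PBS hearts and 63.8, 65.8, 66.7, 63.2 and 70.4 CPM in sham hearts. Infarcted and sham libraries were well apart, with PBS 12 the lowest of all, and the log2 fold change was −0.77 ± 0.11 in rHCI and −0.98 ± 0.09 in PBS hearts. Bckdha, the E1 alpha subunit, had −0.75 in rHCI and −0.95 in PBS hearts. Dbt, the E2 core, had −0.70 in rHCI and −0.88 in PBS hearts.

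The regulators of BCKDH fell unequally. Ppm1k, the phosphatase that activates the complex (ENSMUSG00000037826, GRCm38 chr6:57506502-57535468), had 104, 57.9, 74.2, 124 and 132 CPM in rHCI hearts, 85.8, 92.5, 90.2, 63.5 and 97.1 CPM in PBS hearts and 181, 171, 174, 166 and 179.6 CPM in sham hearts. Sham libraries lay within a narrow band, while rHCI libraries were spread widely, with rHCI 3 below every PBS library and rHCI 1, 11 and 13 above every PBS library, and none reached the sham range. Its log2 fold change was −0.82 ± 0.18 in rHCI and −1.03 ± 0.09 in PBS hearts, the largest fitted fall of the 43 genes in PBS hearts. Bckdk, the kinase that inactivates the complex (ENSMUSG00000030802, GRCm38 chr7:127904082-127910221), had 78.9, 66.1, 74.7, 82.5 and 92.1 CPM in rHCI hearts, 70.2, 75.8, 73.3, 66.7 and 82.2 CPM in PBS hearts and 105, 102, 105, 108 and 112 CPM in sham hearts. Its groups did not overlap either, and its log2 fold change was −0.43 ± 0.08 in rHCI and −0.54 ± 0.05 in PBS hearts.

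The ratio of 2 genes within a library does not depend on how libraries are scaled, and 10 such pairs were compared over the 3 comparisons by a two-sided exact permutation test, adjusted over all 30. The smallest p that 5 against 5 libraries allow is 0.00794. The ratio of Bckdk to Ppm1k counts was 0.759, 1.14, 1.01, 0.667 and 0.695 in rHCI hearts, 0.818, 0.820, 0.812, 1.05 and 0.846 in PBS hearts and 0.580, 0.595, 0.604, 0.646 and 0.626 in sham hearts. All infarcted libraries were above the highest sham library, Sham 19, and rHCI 3, rHCI 7 and PBS 12 were the highest. Their summed cardiomyocyte markers stood at 52.6%, 60.6% and 49.8% of the sham mean, against 72.8% in rHCI 11 and 78.7% in rHCI 13, where the ratio was lowest. PBS 2, at 55.4%, had a ratio of 0.818. In whole tissue a ratio can still differ with the mix of cells, and the part of that mix was not tested. The mean log2 ratio was higher by 0.45 in rHCI and by 0.50 in PBS than in sham hearts (exact p = 0.00794 and adjusted p = 0.0340 for each). The ratio of Bcat1 to Bcat2 counts was 0.0686, 0.104, 0.0731, 0.0509 and 0.0404 in rHCI hearts, 0.0796, 0.0648, 0.0800, 0.106 and 0.0529 in PBS hearts and 0.0187, 0.0147, 0.0206, 0.0157 and 0.0161 in sham hearts. It was higher in every infarcted than in every sham library, by a mean log2 difference of 1.91 in rHCI and 2.13 in PBS hearts (exact p = 0.00794 and adjusted p = 0.0340 for each). For Idh3a to Idh2 the ratio was 0.428, 0.435, 0.381, 0.347 and 0.365 in rHCI hearts, 0.431, 0.365, 0.354, 0.398 and 0.391 in PBS hearts and 0.340, 0.344, 0.276, 0.323 and 0.264 in sham hearts. The separation was narrow, with rHCI 11 just above Sham 17, and the mean log2 difference was 0.34 in rHCI and 0.33 in PBS hearts (exact p = 0.00794 and adjusted p = 0.0340 for each).

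**Figure D2:**
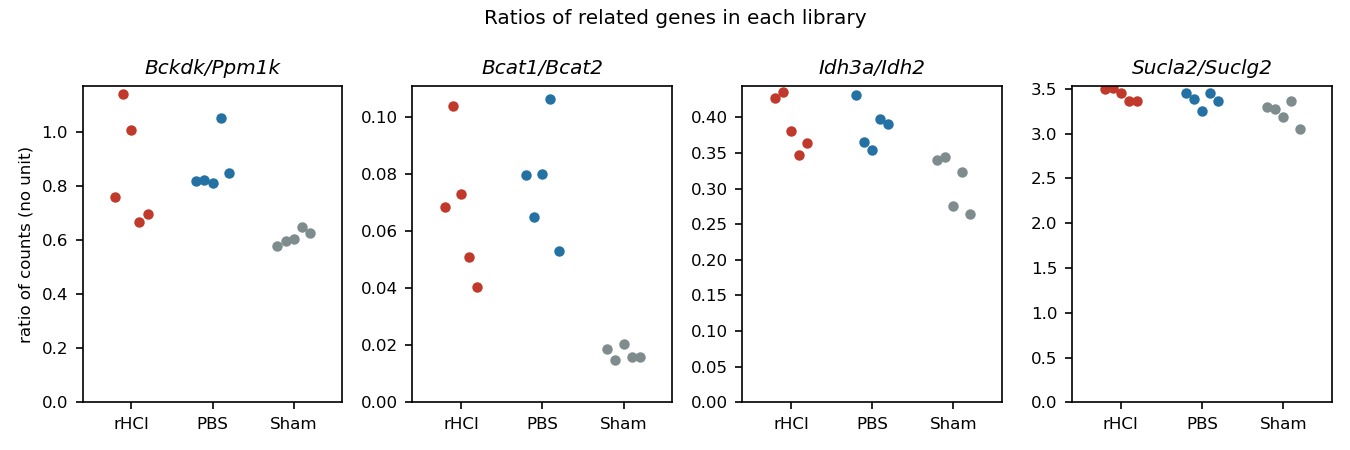
Ratio of the counts of 2 genes (vertical axis, no unit) in each of the 5 libraries (points) of the rHCI, PBS and Sham groups, left to right. Sham libraries are the lowest for Bckdk/Ppm1k, Bcat1/Bcat2 and Idh3a/Idh2, while PBS and Sham overlap for Sucla2/Suclg2.

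Among the other pairs, Sucla2, the ADP-forming, to Suclg2, the GDP-forming subunit of succinyl-CoA ligase, differed by 0.089 in rHCI hearts (exact p = 0.00794, adjusted p = 0.0340) and by 0.065 in PBS hearts (exact p = 0.0635, adjusted p = 0.147). The separation of rHCI from sham libraries was very narrow, with a ratio of 3.361 in rHCI 11 and 3.359 in Sham 19. Bdh1 to Oxct1 differed by 0.21 in rHCI (exact permutation adjusted p = 0.526) and 0.39 in PBS hearts (adjusted p = 0.106), which did not pass. Got1 to Got2 differed by −0.12 in rHCI (exact permutation adjusted p = 0.147) and −0.15 in PBS hearts (adjusted p = 0.130). Pcca to Pccb differed by −0.13 in rHCI (exact permutation adjusted p = 0.0595) and −0.076 in PBS hearts (adjusted p = 0.130). The partner subunits Mccc1 and Mccc2 differed in ratio by 0.065 in rHCI and 0.021 in PBS hearts, the cytosolic and mitochondrial malate dehydrogenases by −0.0096 in rHCI and −0.018 in PBS hearts, and Pcx to Pdha1 by 0.030 in rHCI and 0.066 in PBS hearts. No pair passed between rHCI and PBS hearts, where the log2 differences lay between −0.22 for Bcat1 to Bcat2 and 0.04 for Mccc1 to Mccc2.

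The promoters of the 4 genes whose ratios moved most are shown so that partners which moved apart, Bcat1 and Bcat2 and the kinase and phosphatase of BCKDH, can be read side by side. Each window runs from 250 bases before to 50 bases after a RefSeq transcript start in GRCm38.p6, 5′ to 3′ on the gene's strand, and capitals mark the nuclear receptor hexamer AGGTCA on either strand. Bcat1 has a window at chr6:145076108-145076407, minus strand and, inside the gene, another at chr6:145048763-145049062, minus strand. Bcat2 has windows at chr7:45569903-45570202, plus strand and at chr7:45571029-45571328, plus strand. Bckdk has its window at chr7:127903823-127904122, plus strand, and Ppm1k at chr6:57535438-57535737, minus strand.
Bcat1, first window: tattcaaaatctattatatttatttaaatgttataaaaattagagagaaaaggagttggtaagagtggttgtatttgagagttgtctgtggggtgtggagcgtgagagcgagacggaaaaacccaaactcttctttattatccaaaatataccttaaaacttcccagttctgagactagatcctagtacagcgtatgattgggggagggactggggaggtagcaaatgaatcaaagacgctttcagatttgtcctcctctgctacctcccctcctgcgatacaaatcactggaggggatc
Bcat1, second window: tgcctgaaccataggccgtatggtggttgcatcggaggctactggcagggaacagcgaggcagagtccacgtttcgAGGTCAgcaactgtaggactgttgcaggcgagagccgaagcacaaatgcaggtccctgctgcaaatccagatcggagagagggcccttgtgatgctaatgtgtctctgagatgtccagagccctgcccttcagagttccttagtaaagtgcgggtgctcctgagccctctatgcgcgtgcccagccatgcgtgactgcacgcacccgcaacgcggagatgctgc
Bcat2, first window: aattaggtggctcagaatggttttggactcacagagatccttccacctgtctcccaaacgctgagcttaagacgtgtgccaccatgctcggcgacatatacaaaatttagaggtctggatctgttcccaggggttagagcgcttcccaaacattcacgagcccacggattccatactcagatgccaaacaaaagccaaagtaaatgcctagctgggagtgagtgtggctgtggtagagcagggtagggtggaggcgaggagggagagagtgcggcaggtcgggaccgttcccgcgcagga
Bcat2, second window: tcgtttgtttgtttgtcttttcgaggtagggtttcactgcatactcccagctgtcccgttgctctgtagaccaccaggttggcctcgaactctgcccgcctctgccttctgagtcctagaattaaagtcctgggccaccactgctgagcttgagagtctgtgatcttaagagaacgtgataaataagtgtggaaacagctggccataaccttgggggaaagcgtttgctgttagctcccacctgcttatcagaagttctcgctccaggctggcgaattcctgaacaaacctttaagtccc
Bckdk: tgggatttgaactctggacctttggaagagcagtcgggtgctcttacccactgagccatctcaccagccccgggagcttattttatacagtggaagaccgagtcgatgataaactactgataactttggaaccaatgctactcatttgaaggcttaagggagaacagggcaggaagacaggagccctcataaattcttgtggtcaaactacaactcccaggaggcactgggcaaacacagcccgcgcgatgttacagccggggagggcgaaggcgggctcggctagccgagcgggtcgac
Ppm1k: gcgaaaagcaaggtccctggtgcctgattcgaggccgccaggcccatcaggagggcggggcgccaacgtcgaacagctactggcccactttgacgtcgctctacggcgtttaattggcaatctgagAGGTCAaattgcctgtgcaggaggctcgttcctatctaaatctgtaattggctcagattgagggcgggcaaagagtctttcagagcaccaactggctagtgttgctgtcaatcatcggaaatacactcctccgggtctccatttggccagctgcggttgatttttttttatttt

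The second Bcat1 window and the Ppm1k window each hold 1 copy of AGGTCA, and the other windows shown hold none. RefSeq windows were at hand for 40 of the 43 genes, 52 windows in all, and not for Acat1, Dbt and Idh3a. AGGTCA was found on either strand in 14 of the 52 windows (26.9%), of 13 genes, against 16.3% of all 32851 windows of the same length. The GC box GGGCGG was in 51.9% of the 52 windows, of 24 genes, and 35.7% of all windows. The E-box CACGTG was in 9.62%, of 3 genes, against 7.15%, and the ETS core CCGGAAG in 7.69%, of 4 genes, against 8.86%. Windows of 1 gene can overlap and share a match. The extended estrogen-related receptor element TCAAGGTCA, which contains AGGTCA, and the NRF1 site were in none of the 52 windows, against 0.423% and 0.971% of all windows. No match says only that these letters are not in these windows.

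**Figure D3:**
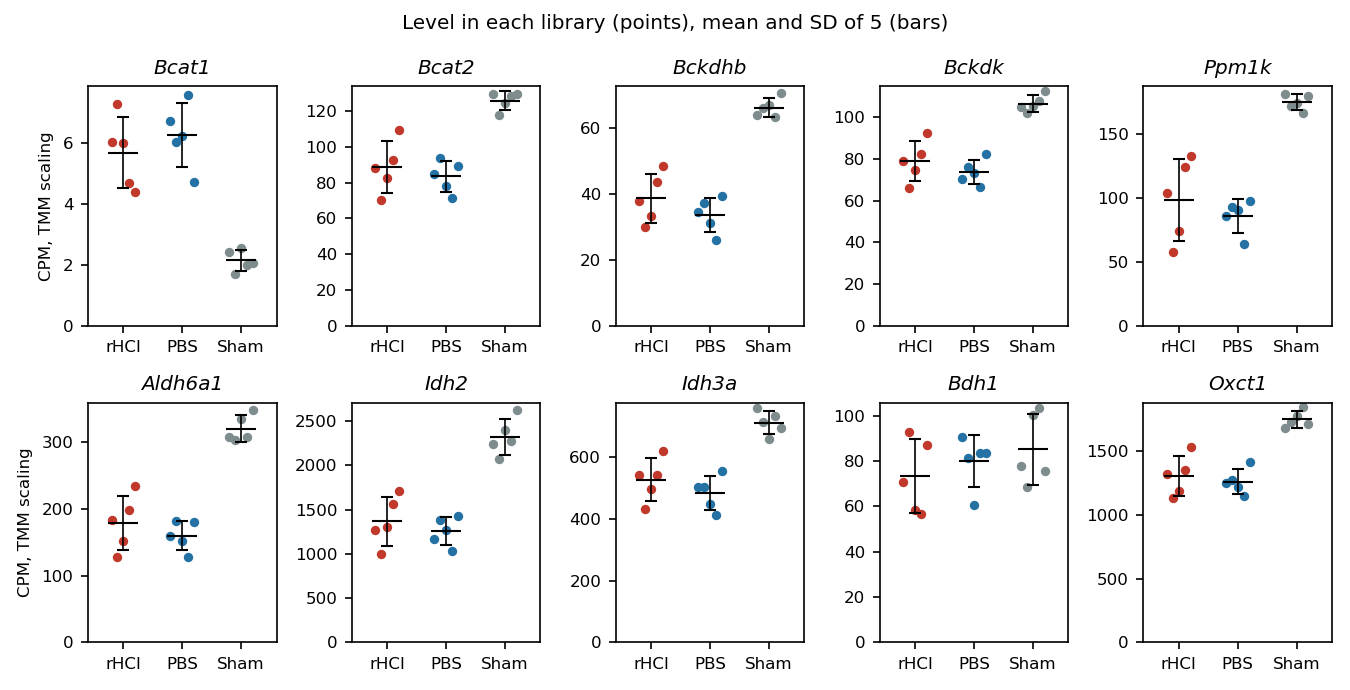
CPM with TMM scaling (vertical axis) of 10 genes in the 5 libraries (points) of the rHCI, PBS and Sham groups, left to right, with the mean and SD (bars). Bcat1 is higher in all 10 infarcted libraries, Bdh1 overlaps between groups, and the other 8 genes are lower in all infarcted libraries.

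Downstream of BCKDH, all 4 leucine and all 5 valine and isoleucine genes were lower. Ivd, isovaleryl-CoA dehydrogenase of the leucine branch, had 291, 224, 268, 332 and 364 CPM in rHCI hearts, 249, 297, 258, 207 and 302 CPM in PBS hearts and 475, 484, 532, 507 and 553 CPM in sham hearts. Infarcted and sham libraries did not overlap, and the log2 fold change was −0.78 ± 0.11 in rHCI and −0.96 ± 0.09 in PBS hearts. In rHCI hearts the log2 fold changes were −0.57 for Mccc1 and −0.63 for Mccc2, the subunits of methylcrotonyl-CoA carboxylase, and −0.52 for Auh, the hydratase that follows. In PBS hearts they were −0.73 for Mccc1, −0.75 for Mccc2 and −0.63 for Auh.

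Aldh6a1, methylmalonate semialdehyde dehydrogenase at the end of the valine branch, had 183, 128, 152, 197 and 234 CPM in rHCI hearts, 159, 182, 151, 128 and 179 CPM in PBS hearts and 307, 303, 335, 307 and 348 CPM in sham hearts. PBS 12 and rHCI 3 were the lowest libraries, and no infarcted library reached the sham range. Aldh6a1 had a log2 fold change of −0.83 ± 0.13 in rHCI hearts, the largest fitted fall of the 43 genes there, and of −1.004 ± 0.09 in PBS hearts. Acad8, isobutyryl-CoA dehydrogenase earlier in the same branch, had 44.0, 37.3, 41.2, 44.4 and 48.9 CPM in rHCI hearts, 38.6, 41.7, 39.4, 37.0 and 43.5 CPM in PBS hearts and 54.5, 52.4, 55.2, 52.4 and 56.1 CPM in sham hearts. The groups did not overlap, although its fall was the smallest of the genes called, at −0.32 ± 0.06 in rHCI and −0.44 ± 0.05 in PBS hearts. In rHCI hearts the log2 fold changes were −0.61 for Acadsb, the short branched-chain acyl-CoA dehydrogenase of isoleucine, −0.43 for Hibch and −0.59 for Hibadh, the hydrolase and dehydrogenase of the valine branch. In PBS hearts they were −0.72 for Acadsb, −0.51 for Hibch and −0.72 for Hibadh.

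Propionyl-CoA from isoleucine and valine enters the cycle as succinyl-CoA. All 3 of its genes were lower. Pccb, the beta subunit of propionyl-CoA carboxylase, had 102, 84.6, 102, 113 and 123 CPM in rHCI hearts, 90.6, 99.3, 93.7, 84.2 and 104 CPM in PBS hearts and 144, 142, 159, 150.1 and 163 CPM in sham hearts. The infarcted libraries were all below the sham libraries, and the log2 fold change was −0.53 ± 0.09 in rHCI and −0.69 ± 0.06 in PBS hearts. Pcca, its biotin-carrying alpha subunit, had −0.65 in rHCI and −0.76 in PBS hearts. Mcee, methylmalonyl-CoA epimerase, had −0.52 in rHCI and −0.67 in PBS hearts.

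Of the 3 genes of ketone oxidation, 2 were lower and Bdh1 was not called. Bdh1, 3-hydroxybutyrate dehydrogenase, which starts ketone body oxidation (ENSMUSG00000046598, GRCm38 chr16:31422280-31458901), had 70.8, 93.0, 58.6, 56.9 and 87.2 CPM in rHCI hearts, 90.7, 81.4, 60.5, 83.6 and 83.6 CPM in PBS hearts and 77.9, 68.6, 101, 104 and 75.5 CPM in sham hearts. The 3 groups overlapped, and even sham libraries ranged widely. The log2 fold change of Bdh1 was −0.21 ± 0.16 in rHCI hearts (95% interval −0.55 to 0.13, edgeR adjusted p = 0.255) and −0.095 ± 0.13 in PBS hearts (95% interval −0.37 to 0.18, edgeR adjusted p = 0.511). Oxct1, the CoA transferase that commits acetoacetate to oxidation (ENSMUSG00000022186, GRCm38 chr15:4026383-4155344), had 1317, 1127, 1184, 1346 and 1529 CPM in rHCI hearts, 1247, 1268, 1218, 1147 and 1416 CPM in PBS hearts and 1679, 1723, 1776, 1842 and 1711 CPM in sham hearts. It was lower without overlap, by one of the smaller amounts of the set, with −0.42 ± 0.08 in rHCI and −0.48 ± 0.06 in PBS hearts. Acat1, the thiolase that yields acetyl-CoA and also acts on isoleucine, had −0.66 ± 0.11 in rHCI and −0.81 ± 0.07 in PBS hearts.

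The median of the 43 genes varied from heart to heart in step with markers of heart muscle cells. It stood at 67.3%, 54.9%, 63.6%, 73.5% and 81.2% of the sham mean in rHCI libraries, at 60.1%, 65.5%, 60.5%, 55.2% and 70.6% in PBS libraries, and at 95.7% to 104% in sham libraries. The summed cardiomyocyte markers (Myh6, Tnnt2, Tnni3, Actc1, Ryr2, Ttn, Pln, Mb, Myl2 and Myl3) stood at 65.8%, 52.6%, 60.6%, 72.8% and 78.7% of their sham mean in rHCI libraries, at 55.4%, 60.3%, 56.2%, 49.8% and 71.2% in PBS libraries, and at 94.1% to 105% in sham libraries. Ranked from highest to lowest, the 10 infarcted libraries took the same place by the median gene and by the markers or places 1 apart. Not every gene followed. Among infarcted libraries Bcat1 was highest, at 338% of its sham mean in rHCI 3 and 352% in PBS 12, in the libraries lowest in these markers, and lowest, at 205%, in rHCI 13, the infarcted library highest in them. Bdh1 stood at 109% of its sham mean in rHCI 3, but also at 102% in rHCI 13, and at 66.7% in rHCI 11. Counts from mitochondrially encoded genes followed, at 9.77% to 14.5% of counts in rHCI, 10.1% to 12.5% in PBS and 15.3% to 17.2% in sham libraries. Fibroblast markers, 7 genes, summed to 13055 to 21411 CPM in rHCI, 14277 to 21276 in PBS and 1124 to 1434 in sham libraries. Macrophage markers, also 7 genes, summed to 668 to 862 CPM in rHCI, 676 to 927 in PBS and 179.7 to 219 in sham libraries, and no listed marker of the 3 lists was at 0 in all libraries. The part of these cell types in the falls was not tested.

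**Figure D4:**
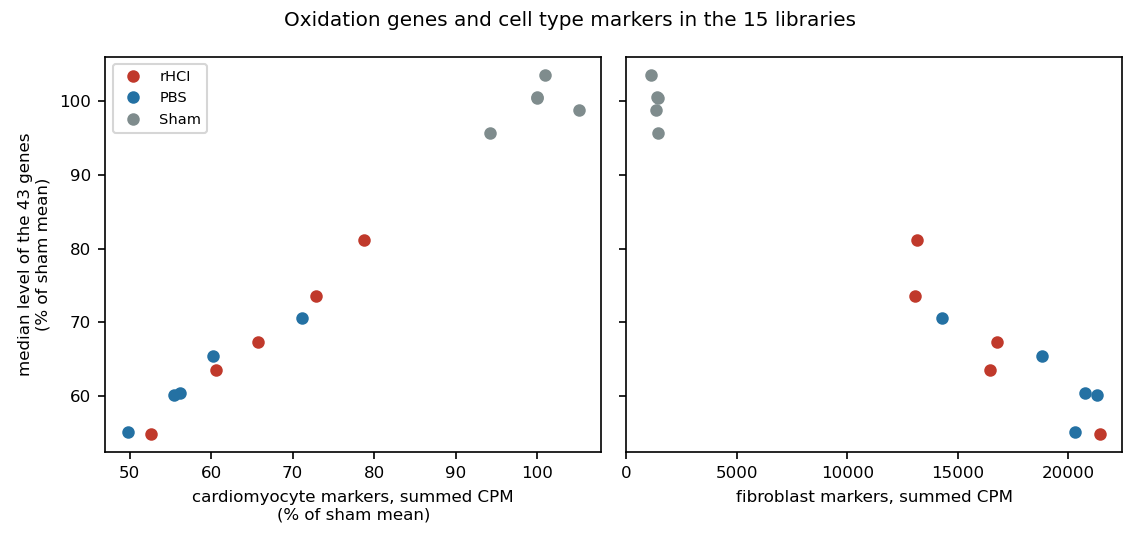
Median level of the 43 genes in each library, as % of the sham mean (vertical axis), against summed cardiomyocyte markers as % of the sham mean (left) and summed fibroblast markers in CPM (right), for rHCI (red), PBS (blue) and Sham (grey) libraries. Infarcted libraries run from 54.9% to 81.2% on the vertical axis and rank almost alike by cardiomyocyte markers.

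Scaled to the summed counts of the 10 cardiomyocyte markers in place of TMM, most of the falls were no longer called. This scaling raised the median log2 fold change of all genes to 0.62 in rHCI and 0.78 in PBS against sham hearts, and called 1.77% of all genes lower and 77.6% higher in rHCI hearts, and 1.76% lower and 84.0% higher in PBS hearts. Of the 43 genes, 9 were higher, 4 lower and 30 not called in rHCI hearts, and 15 were higher, 4 lower and 24 not called in PBS hearts. Their median was 0.05 in rHCI and 0.10 in PBS hearts, which is 0.56 and 0.69 below the median of all genes on the same scale. A change of scaling shifts the set and the other genes nearly alike, so these distances are close to those with TMM, 0.54 and 0.67, by construction. The markers themselves spread on this scale from −0.22 for Ttn to 0.53 for Actc1 in rHCI hearts and from −0.44 for Ttn to 0.60 for Actc1 in PBS hearts. In rHCI hearts Myh6 (−0.18) and Pln (−0.17) were called lower and Actc1 higher. In PBS hearts Myh6 (−0.24), Pln (−0.18), Ryr2 (−0.19), Tnni3 (−0.14) and Ttn were called lower, and Mb (0.14), Myl3 (0.12) and Actc1 higher.

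Relative to heart muscle markers, branched-chain genes were called in both directions, while Bckdha and Dbt of the BCKDH complex were called in neither infarcted group. Of the 43 genes, only Bcat1 lay above the median of all genes on this scale in PBS hearts, 0.78. The 4 genes called lower in rHCI hearts were Bckdhb (−0.19 ± 0.08, edgeR adjusted p = 0.0437), Ivd (−0.20 ± 0.07, 0.0154), Aldh6a1 (−0.26 ± 0.08, 0.00810) and the cycle gene Idh2 (−0.17 ± 0.07, 0.0290). The 4 called lower in PBS hearts were Bckdhb (−0.21 ± 0.08, edgeR adjusted p = 0.0302), Ivd (−0.19 ± 0.07, 0.0247), Aldh6a1 (−0.23 ± 0.08, 0.0108) and Ppm1k (−0.25 ± 0.08, 0.00729). In rHCI hearts Ppm1k had −0.26 ± 0.12 and was not called (edgeR adjusted p = 0.0538), and in PBS hearts Idh2 had −0.11 ± 0.07 and was not called (edgeR adjusted p = 0.128). Falls of similar size were called among the markers that set the scale, for Myh6 and Pln in both infarcted groups. Bcat1 stayed higher, by 2.06 ± 0.23 in rHCI and 2.35 ± 0.19 in PBS hearts, which this scaling cannot test because it moves nearly all genes up. Bckdk turned higher, by 0.17 ± 0.07 in rHCI and 0.25 ± 0.07 in PBS hearts. Bcat2 and Hibch turned higher in PBS hearts, by 0.19 ± 0.08 and 0.27 ± 0.08. Among genes that turned from lower to higher in both infarcted groups were Pdhx (0.19 in rHCI and 0.32 in PBS hearts), Dlst (0.21 in rHCI and 0.30 in PBS hearts), Acad8 (0.28 in rHCI and 0.35 in PBS hearts) and Oxct1 (0.18 in rHCI and 0.31 in PBS hearts). Bdh1 was higher in PBS hearts on this scale (0.70 ± 0.14, edgeR adjusted p = 1.39e-04) and had 0.42 ± 0.19 in rHCI hearts (edgeR adjusted p = 0.0563).

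**Figure D5:**
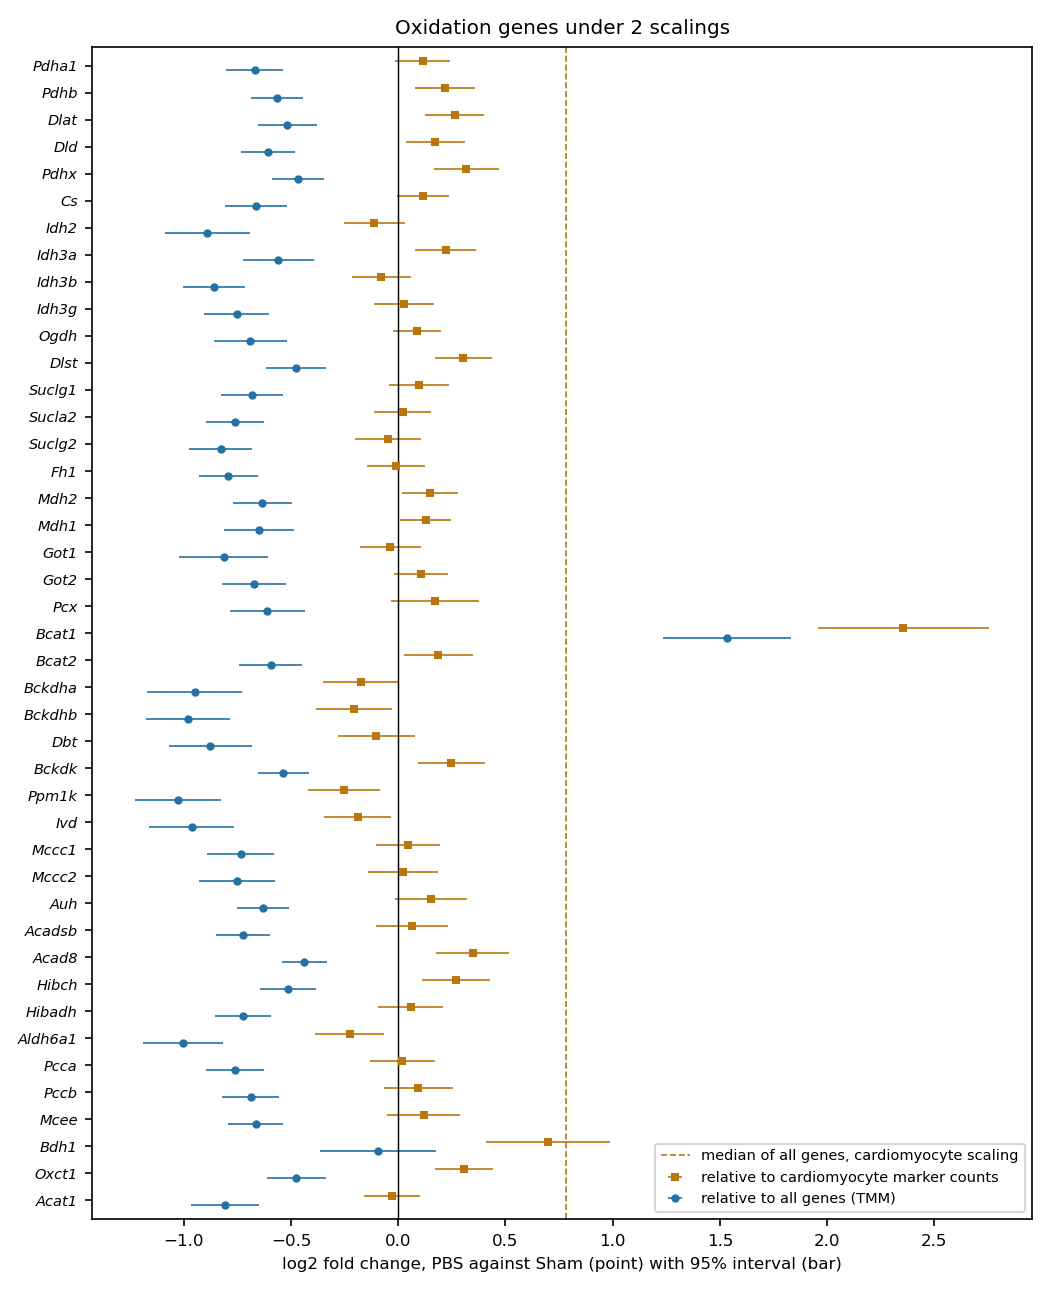
Log2 fold changes of PBS against Sham (horizontal axis, no unit) for the 43 genes relative to cardiomyocyte marker counts (squares) and relative to all genes with TMM scaling (circles), with 95% intervals (bars). The dashed line at 0.78 is the median of all genes under the marker scaling, which only the points of Bcat1 pass.

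The comparison of rHCI with PBS hearts asks what the hydrogel changed in infarcted ventricles. None of the 43 genes was called, as for 0% of all 16383 genes tested by edgeR, where 579 genes had an unadjusted p under 0.05. DESeq2 called 6 genes and limma-voom 3 genes of all those tested, and none of the 43. The log2 fold changes were positive for 41 genes and negative for Bcat1 and Bdh1 with TMM scaling, and negative for 41 and positive for 2 relative to cardiomyocyte markers. With TMM scaling the median was 0.12 over the set and 0.00 over all genes, and the 95% intervals reached from −0.48 to 0.65. These values share the PBS libraries with the comparison of PBS with sham hearts. Libraries of the 2 groups overlapped for each of the 43 genes, while 0.299% of all genes were without overlap in the lower and 0.201% in the higher direction. Scaled to cardiomyocyte markers, the median of the 43 genes was −0.06 and that of all genes −0.17.

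The 6 genes with the smallest unadjusted p were Pccb, Acad8, Bckdhb, Idh3b, Idh3g and Mcee, and their log2 fold changes between rHCI and PBS hearts were at most 0.20. Pccb had 0.15 ± 0.09 (95% interval −0.05 to 0.35, edgeR unadjusted p = 0.119 and adjusted p = 0.871). Acad8 had 0.11 ± 0.07 (95% interval −0.04 to 0.26) and Bckdhb 0.20 ± 0.14 (95% interval −0.10 to 0.50). Idh3b had 0.16 ± 0.11, Idh3g 0.15 ± 0.11 and Mcee 0.13 ± 0.10, with edgeR adjusted p = 0.871 for each. Ppm1k had the widest interval of the set, −0.25 to 0.65 around 0.20, and its rHCI libraries ranged from 57.9 to 132 CPM. The coefficients of variation of Ppm1k were 32.3% in rHCI, 15.3% in PBS and 3.45% in sham hearts.

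Other genes of these pathways, listed with earlier results of the data known, showed the same direction for the most part. Of 73 listed, 71 were tested. Relative to sham hearts, edgeR called 50 lower and 8 higher in rHCI hearts, and 51 lower and 9 higher in PBS hearts. Of all genes tested, 29.7% were lower and 34.1% higher in rHCI hearts, and 34.9% lower and 36.5% higher in PBS hearts. Between rHCI and PBS hearts 0 of the 71 were called, as for 0% of all genes. Relative to cardiomyocyte markers, 5 of the 71 were lower and 32 higher in rHCI, and 3 lower and 42 higher in PBS hearts. On that scale 1.77% of all genes tested were lower and 77.6% higher in rHCI, and 1.76% lower and 84.0% higher in PBS hearts. With TMM scaling the lower genes in rHCI hearts were 11 of 13 around the TCA cycle, 6 of 9 that control pyruvate use, 7 of 12 of anaplerosis, 6 of 11 of branched-chain metabolism, 6 of 6 of propionyl-CoA and cobalamin metabolism, 4 of 7 of ketone metabolism and 10 of 13 of lipoate, biotin and thiamine supply. In PBS hearts they were 11 of 13, 8 of 9, 8 of 12, 6 of 11, 6 of 6, 3 of 7 and 9 of 13 of the same lists.

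Klf15, a transcription factor that promotes branched-chain amino acid breakdown in heart, had 35.3 ± 13.3 CPM in rHCI, 32.1 ± 7.15 in PBS and 109 ± 16.4 in sham hearts (SD, n = 5). Its log2 fold change was −1.61 ± 0.22 in rHCI and −1.76 ± 0.14 in PBS hearts, and relative to cardiomyocyte markers it was still lower, at −1.06 in rHCI (edgeR adjusted p = 6.37e-05) and −0.995 in PBS hearts (edgeR adjusted p = 8.16e-07). Among other branched-chain genes Hsd17b10 had −0.65 ± 0.11 in rHCI and −0.80 ± 0.08 in PBS hearts, and Echs1, an enoyl-CoA hydratase, −0.64 ± 0.10 in rHCI and −0.78 ± 0.07 in PBS hearts.

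The kinases that switch off pyruvate dehydrogenase did not move alike. Pdk3 was higher, at 6.43 ± 0.798 CPM in rHCI, 7.11 ± 1.06 in PBS and 2.58 ± 0.253 in sham hearts, a log2 fold change of 1.32 ± 0.11 in rHCI and 1.46 ± 0.12 in PBS hearts. Pdk2 was lower, with −0.73 ± 0.12 in rHCI and −0.92 ± 0.08 in PBS hearts, and relative to cardiomyocyte markers it was not called, at −0.14 in rHCI (edgeR adjusted p = 0.0651) and −0.14 in PBS hearts (edgeR adjusted p = 0.0647). Pdk4 had −0.90 ± 0.33 in PBS hearts (edgeR adjusted p = 0.0265), and that call was lost without Sham 20 (−0.51, adjusted p = 0.0915), Sham 16 (adjusted p = 0.0630) or PBS 6 (adjusted p = 0.0625). It was also lost with library totals (−0.62, edgeR adjusted p = 0.109), with limma-voom (−0.54, adjusted p = 0.116) and relative to cardiomyocyte markers (−0.086, edgeR adjusted p = 0.786). In rHCI hearts Pdk4 had −0.71 ± 0.35 and was not called (edgeR adjusted p = 0.0963).

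Around the cycle, Nnt, which couples the proton gradient to NADPH, had −0.88 ± 0.13 in rHCI and −1.08 ± 0.09 in PBS hearts. Adhfe1, a hydroxyacid-oxoacid transhydrogenase, had −0.89 ± 0.16 in rHCI and −1.15 ± 0.10 in PBS hearts. Relative to cardiomyocyte markers Nnt was still lower, at −0.30 in rHCI and −0.31 in PBS hearts, and so was Adhfe1, at −0.32 in rHCI and −0.38 in PBS hearts. Pck2, mitochondrial phosphoenolpyruvate carboxykinase, was higher, with 0.90 ± 0.10 in rHCI and 1.07 ± 0.09 in PBS hearts. Gpt2, the mitochondrial alanine aminotransferase, had −0.69 ± 0.14 in rHCI and −0.89 ± 0.10 in PBS hearts, and the aspartate-glutamate carrier gene Slc25a12 −0.54 ± 0.08 in rHCI and −0.68 ± 0.06 in PBS hearts. All 6 further genes of propionyl-CoA and cobalamin metabolism were lower in both groups, with −0.61 ± 0.11 in rHCI and −0.78 ± 0.06 in PBS hearts for Mut, methylmalonyl-CoA mutase, −0.69 ± 0.08 for Mmaa and −0.67 ± 0.08 for Mmachc in PBS hearts. In ketone use, Aacs, a cytosolic enzyme that activates acetoacetate for lipid synthesis, was higher, with 0.55 ± 0.14 in rHCI and 0.65 ± 0.11 in PBS hearts, and the monocarboxylate transporter genes Slc16a7 and Slc16a1 had −0.57 ± 0.08 and −0.33 ± 0.08 in PBS hearts. Of the lipoate, biotin and thiamine genes, Btd, biotinidase, was higher, with 0.49 ± 0.06 in rHCI and 0.56 ± 0.06 in PBS hearts, while Isca1 and Lipt1 had −0.62 ± 0.06 and −0.48 ± 0.10 in PBS hearts. Relative to cardiomyocyte markers, Slc16a1 turned higher, at 0.38 in rHCI (edgeR adjusted p = 0.00319) and 0.45 in PBS hearts (edgeR adjusted p = 1.36e-04). Lipt1 (0.29, edgeR adjusted p = 0.0277) and Isca1 (0.16, edgeR adjusted p = 0.0357) turned higher in PBS hearts. Gpt2, Slc25a12, Mut, Mmaa, Mmachc, Slc16a7, Echs1 and Hsd17b10 were not called on this scale in either infarcted group, with values between −0.12 and 0.12 in rHCI and between −0.12 and 0.21 in PBS hearts. Pdk3, Pck2, Aacs and Btd stayed higher in both. The scaling moves nearly all genes up against sham hearts, so it cannot test genes that were already higher.

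For 13 of the 43 genes the exons overlap another annotated gene, on the opposite strand for all but Hibadh, and whether counting used the strand is not given in the sources used here. Bckdha shares 61.7% of its exon bases with B3gnt8, which had 5453 counts over the 15 libraries against 201108 for Bckdha. Bdh1 shares 13.7% with Gm15743, which had 902 counts against 74736. Counts of the pseudogene Got2-ps1 came to 0.455% of those of Got2. Pcca shares 4.63% with Ggact, which had 8829 counts against 76858. The values of overlapping genes are uncertain, and the counts of the other gene do not bound the error.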

How the data were processed

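Raw counts per gene, in a single table that the authors deposited, were used for 15 libraries of mouse left ventricle. Stranded mRNA libraries were made from ground tissue, per the labels' protocols. Trimmomatic, STAR, Cufflinks and edgeR, and the mouse build GRCm38 (mm10), are named in the submitters' processing notes with neither roles nor versions. Which program counted the reads, with which annotation and whether by strand, is not given in the sources used here. Totals ran from 32978702 to 103356830 counts per library, and a depth of this size leaves the spread between hearts, not counting, as the main limit on precision. The libraries of a group differed by more than counting error in all 30 pairs, with a chi-square per gene of at least 10.7, and each was counted as a replicate.

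The deposited counts were tested with edgeR 4.0.16 in R 4.3.3 (filterByExpr, TMM scaling, quasi-likelihood F test, two-sided), with a separate fit of 10 libraries for each pair of groups and Benjamini-Hochberg adjustment over all genes tested, at 0.05. Levels are CPM with TMM factors over all 15 libraries, and per kilobase levels divide by the exon union of GENCODE M21. Ratios of gene pairs used raw counts with 0.5 counts added and a two-sided exact permutation test over all arrangements, computed with numpy 2.4.6. Alternatives were RLE factors, library totals, summed counts of 10 cardiomyocyte markers, DESeq2 1.42.0, limma-voom with quality weights (limma 3.58.1), other count filters, all libraries in 1 fit, the run number as a covariate, the shared run alone, leaving out each library, and 2 counts added to ratios. The fits were checked on simulated counts.

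The 43 genes, the other pathway and marker lists, the pairs and the motifs were chosen with earlier results of these data known. All 43 genes are named. Between rHCI and PBS hearts the 6 with the smallest unadjusted p are named, and of each list of other pathway genes up to 3, those with the largest change among genes called in PBS against sham hearts at 5 CPM or more. One gene that this rule names is not reported here. Promoter sequences and their coordinates are from RefSeq (GRCm38.p6). Gene positions are from GENCODE M21 on GRCm38, matched by gene identifier.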

Additional observations from a re-analysis of the deposited data

Results flagged for a closer look

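Of 159 sets of 5 libraries of a group examined, 2 held a library far from the other 4, and chance gives about 1 in 20. The ratio of Bckdk to Ppm1k counts was 1.05 in PBS 12, against 0.812 to 0.846 in the other PBS libraries. PBS 12 also had the lowest cardiomyocyte marker sum of the PBS libraries, 49.8% of the sham mean, and the part of that in the ratio was not tested. The ratio of Mdh1 to Mdh2 counts was 1.61 in Sham 18, against 1.71 to 1.74 in the other sham libraries.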

How the results depend on the processing

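No paired analysis was possible because the groups compared share no replicate numbers. The counts of the 43 genes called were the same under all alternatives in the comparison of PBS with sham hearts except cardiomyocyte marker counts (15 higher, 4 lower). In the comparison of rHCI with sham hearts the exceptions were cardiomyocyte marker counts (9 higher, 4 lower) and library totals (40 lower, Acad8 not called). The 71 other pathway genes gave 32 higher and 5 lower in rHCI and 42 higher and 3 lower in PBS hearts with marker counts, and 13 higher in rHCI and 17 higher in PBS hearts with library totals (alternatives added after seeing the data). With marker counts, log2 fold changes turned positive in rHCI against sham hearts for Pdha1 0.037, Pdhb 0.14, Dlat 0.19, Dld 0.10, Pdhx 0.19, Cs 0.061, Idh3a 0.17, Ogdh 0.050, Dlst 0.21, Suclg1 0.054, Mdh2 0.093, Mdh1 0.083, Got2 0.071, Pcx 0.059, Bcat2 0.092, Bckdk 0.17, Mccc1 0.017, Auh 0.073, Acad8 0.28, Hibch 0.16, Hibadh 0.0020, Pccb 0.065, Mcee 0.070, Bdh1 0.42 and Oxct1 0.18, and in PBS against sham hearts for Pdha1 0.11, Pdhb 0.22, Dlat 0.26, Dld 0.17, Pdhx 0.32, Cs 0.12, Idh3a 0.22, Idh3g 0.025, Ogdh 0.087, Dlst 0.30, Suclg1 0.097, Sucla2 0.020, Mdh2 0.15, Mdh1 0.13, Got2 0.11, Pcx 0.17, Bcat2 0.19, Bckdk 0.25, Mccc1 0.045, Mccc2 0.023, Auh 0.15, Acadsb 0.064, Acad8 0.35, Hibch 0.27, Hibadh 0.058, Pcca 0.019, Pccb 0.094, Mcee 0.12, Bdh1 0.70 and Oxct1 0.31. Between rHCI and PBS hearts they turned negative for Pccb −0.029, Acad8 −0.068, Idh3b −0.022, Idh3g −0.027 and Mcee −0.048. This scaling changes the factor of each library, and by its construction moves all genes by nearly the same amount, up against sham hearts and down between rHCI and PBS hearts. With library totals Bdh1 turned to 0.016 in rHCI and 0.18 in PBS hearts.

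The 12 libraries of the shared run gave adjusted p = 0.122 for the 7 ratio results that had passed, each at the smallest p this number of libraries allows (exact p = 0.0286). Their log2 differences were 0.51 in rHCI and 0.54 in PBS hearts for Bckdk/Ppm1k, 1.85 and 2.15 for Bcat1/Bcat2, 0.32 and 0.37 for Idh3a/Idh2, and 0.098 in rHCI hearts for Sucla2/Suclg2. Small differences turned sign there, to −0.038 for Pcx/Pdha1 in rHCI against sham hearts, and to −0.010 for Mdh1/Mdh2 and −0.044 for Idh3a/Idh2 between rHCI and PBS hearts. With each library left out (smallest exact p = 0.0159), the 7 kept their direction. Each of the 7 no longer passed in 9 of its 10 cases, 63 in all, with adjusted p of 0.0595 to 0.0680. The ranges were 1.73 to 2.07 in rHCI and 2.00 to 2.26 in PBS against sham hearts for Bcat1/Bcat2, 0.34 to 0.53 and 0.43 to 0.53 for Bckdk/Ppm1k, 0.29 to 0.38 and 0.27 to 0.37 for Idh3a/Idh2, and 0.068 to 0.10 and 0.044 to 0.079 for Sucla2/Suclg2. They were 0.32 to 0.47 for Bdh1/Oxct1 in PBS hearts, and −0.15 to −0.084 for Got1/Got2, −0.16 to −0.094 for Pcca/Pccb, −0.032 to 0.012 for Mdh1/Mdh2 and −0.023 to 0.062 for Pcx/Pdha1 in rHCI hearts. Between rHCI and PBS hearts they were −0.16 to 0.029 for Bckdk/Ppm1k, −0.030 to 0.052 for Idh3a/Idh2, −0.0061 to 0.063 for Got1/Got2, 0.019 to 0.084 for Mccc1/Mccc2 and −0.014 to 0.030 for Mdh1/Mdh2.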
